A study of Homo sapiens with 12 samples.

Results

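The autophagy machinery and the stress brakes of mTORC1 were followed here as a set of 39 genes, out of 57500 genes in the deposited count table. The set was chosen by name, for roles the genes are known to have and with earlier results of these data known, and each name fell on 1 gene identifier. All 39 passed the filter on low counts. The study sequenced total RNA of HCC1806 and MDA-MB-468, both established cell lines of triple-negative breast cancer, with and without CRISPR-Cas9 depletion of PACT. PACT, encoded by PRKRA, binds double-stranded RNA and acts on the kinase PKR, and the title of the series concerns PACT as a suppressor of PKR. The 4 groups were HCC1806 with the control guide sgC1, HCC1806 with sgPACT-2, MDA-MB-468 with the control guide sgNTA and MDA-MB-468 with sgPACT-2. Each group had 3 libraries, 12 in all, and all were made from RNA freed of rRNA. Depletion rested on a single guide, and the labels do not say whether the cells were clones or pools, or how long after editing they were taken.

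Autophagy is the route by which a cell wraps its own contents in a double membrane and delivers them to the lysosome. The kinase complex mTORC1 holds the route off when nutrients are plentiful by phosphorylating the ULK1 complex and the MiT/TFE transcription factors, and stress-induced proteins such as DDIT4 and the sestrins act to lower mTORC1 activity. Once released, ULK1 starts the nascent membrane, a lipid kinase marks it with PI3P, and a conjugation system attaches small ubiquitin-like ATG8 proteins that bind cargo receptors. The kinase PKR phosphorylates eIF2alpha and so raises ATF4, a transcription factor known to act on several genes of this route, DDIT4 among them.

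Library totals ran from 18640633 to 24704877 counts in HCC1806 and from 34581754 to 44790741 in MDA-MB-468. The 39 genes together took 0.168% to 0.239% of the counts of an HCC1806 library and 0.215% to 0.242% of an MDA-MB-468 library. Levels are CPM, counts scaled to library size after TMM normalization, and differences are log2 fold changes from edgeR's quasi-likelihood test with their standard error (SE). A gene was called changed at a Benjamini-Hochberg adjusted p under 0.05 over 27029 genes tested. All 12 libraries were fitted together, with a biological coefficient of variation of 0.171. Fitted alone, HCC1806 had 0.204 and MDA-MB-468 0.0936, so the joint fit set its spread below that of HCC1806 and above that of MDA-MB-468. Adjusted p-values with the line fitted alone are therefore given beside the calls. In HCC1806, sgPACT-2 replicate 1 stood apart from the other libraries on the first principal component, which held 30.3% of the variance. PGR reached at most 0.300 CPM in any library, ERBB2 124 to 209 CPM and the epithelial marker EPCAM 108 to 232 CPM. ESR1 was not at 0, with 18.6 to 24.2 CPM in HCC1806 and 6.27 to 7.51 CPM in MDA-MB-468. Among markers of other cell types, COL1A1 was not at 0 either, with 28.2 to 48.3 CPM in HCC1806 and 16.8 to 21.5 CPM in MDA-MB-468. PTPRC, DCN and PECAM1 reached at most 0.585, 0.467 and 1.89 CPM in any library. Nothing in the labels says that replicates were separate cultures, so p-values measure only the spread between these libraries.

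PRKRA, the gene cut by the guide, was read first. In HCC1806 it had 78.6, 82.6 and 72.1 CPM with sgC1 and 37.5, 36.1 and 37.3 CPM with sgPACT-2, for replicates 1 to 3. It fell by 1.07 on the log2 scale (SE 0.10, edgeR adjusted p = 1.7e-05). In MDA-MB-468 it had 41.1, 45.9 and 46.9 CPM with sgNTA and 39.2, 35.5 and 41.6 CPM with sgPACT-2. The groups overlapped and the log2 fold change of -0.20 did not pass (SE 0.10, edgeR adjusted p = 0.958). A Cas9 cut can end a protein and leave its mRNA, so the PRKRA transcript checked the labels in HCC1806 and not in MDA-MB-468. In these bulk libraries, fewer cells with a transcript and less of it per cell cannot be told apart.

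In HCC1806, 4 of the 39 genes rose with sgPACT-2 and 0 fell: ULK1, MAP1LC3B, ATG2A and WIPI1. Across all genes tested, 1.16% rose, 1.32% fell and 2.49% changed in either direction. The members' log2 fold changes ran from -0.16 to 0.68 with a median of 0.05, against a median of 0.01 over all genes tested. At an unadjusted p under 0.05 there were 7 members, all higher, where 14.5% of all genes tested passed. The 4 calls belong to 3 roles, as the plot of effects by role shows.

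**Figure D1:**
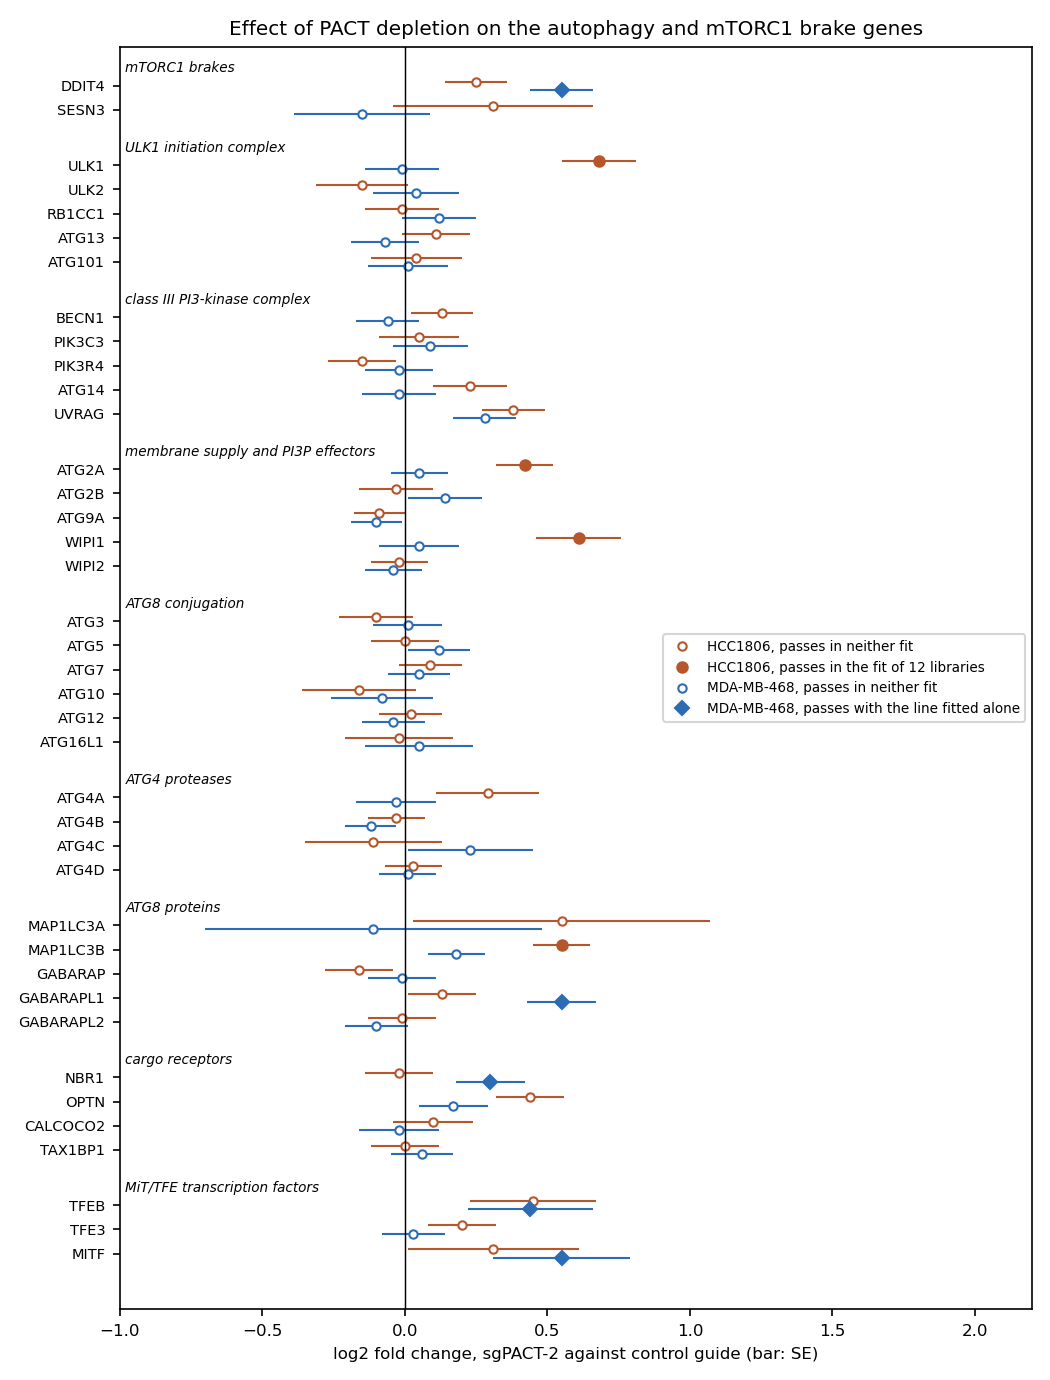
Log2 fold change of each of the 39 genes with sgPACT-2 against the control guide (horizontal axis; bars are the SE), grouped by role, in HCC1806 (brown) and MDA-MB-468 (blue). Filled circles passed an adjusted p of 0.05 in the joint edgeR fit of 12 libraries, which are ULK1, ATG2A, WIPI1 and MAP1LC3B in HCC1806. Diamonds passed with MDA-MB-468 fitted alone but not in that joint fit, which are DDIT4, GABARAPL1, NBR1, TFEB and MITF.

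The initiation complex opens the route, and its kinase ULK1 (ENSG00000177169, chr12:131894651-131923167, plus strand, GRCh38) phosphorylates several of the proteins that follow. In HCC1806, ULK1 had 115, 154 and 140 CPM with sgC1 and 172, 237 and 244 CPM with sgPACT-2. The groups did not overlap, and the lowest depleted library was replicate 1, the one that stood apart. ULK1 rose by 0.68 on the log2 scale, 1.60-fold (SE 0.13, edgeR adjusted p = 0.0117). With HCC1806 fitted alone the size was 0.69 and the adjusted p was 0.164. When 1 library was left out, ULK1 passed in 10 of 12 joint edgeR fits. The call was lost without sgC1 replicate 1 (0.56, adjusted p = 0.0551) and without sgPACT-2 replicate 2 (0.61, adjusted p = 0.0524). With HCC1806 alone it passed in 1 of 6 such fits, without sgPACT-2 replicate 1 (0.84, adjusted p = 0.00992), and the adjusted p was 0.300 to 0.467 in the other 5. The gene overlaps no other annotated gene.

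The other subunits did not follow ULK1 past the threshold in HCC1806. Its paralog ULK2 had a log2 fold change of -0.15. The scaffold RB1CC1, also known as FIP200, had -0.01. The regulatory subunit ATG13, through which mTORC1 also acts, had 0.11, and its partner ATG101 had 0.04. Their edgeR adjusted p-values lay between 0.767 and 0.999.

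Bases next to the start sites are shown because ULK1, ATG2A and WIPI1 rose in HCC1806 and DDIT4 was the member with the smallest adjusted p in MDA-MB-468. They are the bases before the annotated start in RefSeq (GRCh38.p14), 5' to 3' on the gene's own strand, without those that lie in an annotated exon. They span chr12:131894372-131894621 (plus) for ULK1, chr11:64917249-64917459 (minus) for ATG2A, chr17:68457514-68457746 (minus) for WIPI1 and chr10:72273674-72273919 (plus) for DDIT4.
ULK1: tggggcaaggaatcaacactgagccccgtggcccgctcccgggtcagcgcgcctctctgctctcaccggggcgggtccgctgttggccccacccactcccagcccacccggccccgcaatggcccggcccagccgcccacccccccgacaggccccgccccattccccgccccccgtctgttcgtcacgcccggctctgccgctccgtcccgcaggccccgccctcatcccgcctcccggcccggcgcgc
ATG2A: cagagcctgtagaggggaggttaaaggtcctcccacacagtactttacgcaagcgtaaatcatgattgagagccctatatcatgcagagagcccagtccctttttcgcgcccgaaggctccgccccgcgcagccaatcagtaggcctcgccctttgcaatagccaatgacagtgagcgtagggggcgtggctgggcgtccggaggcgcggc
WIPI1: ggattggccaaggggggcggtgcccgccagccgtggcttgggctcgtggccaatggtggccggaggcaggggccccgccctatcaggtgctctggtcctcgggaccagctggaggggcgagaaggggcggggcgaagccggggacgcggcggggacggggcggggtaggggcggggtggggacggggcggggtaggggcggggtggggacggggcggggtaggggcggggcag
DDIT4: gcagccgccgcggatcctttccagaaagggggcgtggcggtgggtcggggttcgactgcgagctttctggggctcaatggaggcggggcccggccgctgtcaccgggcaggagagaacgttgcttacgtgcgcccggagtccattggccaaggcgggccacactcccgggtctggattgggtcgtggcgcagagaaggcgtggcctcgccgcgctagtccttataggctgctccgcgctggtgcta

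These 4 runs hold none of the motifs searched for, so nothing in them is in capitals. The motifs were TGATGNAA, the core of the composite element bound by ATF4 with a C/EBP partner, CACGTG, the E-box, and TCACGTG, an E-box with the flanking base that MiT/TFE factors favor, which always contains CACGTG. Both strands of the 250 bases before the start were read, exonic bases included, for the 35 members with an entry. TGATGNAA was in 0 of the 35 windows and in 3.19% of the 27305 windows of all genes. CACGTG was in 2 of the 35, against 6.49% of all windows, and TCACGTG in the same 2, against 3.38%. They belong to ATG14 and ATG3, neither of which passed in a depletion contrast. Unlike the 4 runs above, both matches lie in bases annotated as exon. The 30 bases around each match, which is in capitals, are at chr14:55411834-55411863 (minus) and chr3:112561963-112561992 (minus).
ATG14: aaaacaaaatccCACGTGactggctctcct
ATG3: cctttctcacgtCACGTGccgggagagtct

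Membrane supply and PI3P effectors held 2 of the 4 calls in HCC1806. ATG2A (ENSG00000110046, chr11:64894546-64917248, minus strand) encodes a lipid transfer protein that feeds the growing membrane. It had 70.3, 83.5 and 72.4 CPM with sgC1 and 94.8, 109 and 98.2 CPM with sgPACT-2. All depleted libraries lay above all control libraries, and ATG2A rose by 0.42 on the log2 scale (SE 0.10, edgeR adjusted p = 0.0360; 0.213 with the line alone). It passed in 3 of 12 joint fits that left out a library, with adjusted p-values of 0.00916 to 0.135, and in 0 of 6 such fits of HCC1806 alone. Its paralog ATG2B had -0.03.

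WIPI1 (ENSG00000070540, chr17:68420948-68457513, minus strand) encodes a protein that binds PI3P on the nascent membrane. It had 10.4, 10.3 and 8.17 CPM with sgC1 and 13.2, 17.8 and 13.2 CPM with sgPACT-2. The groups did not overlap, and replicate 2 was the highest depleted library. WIPI1 rose by 0.61 on the log2 scale (SE 0.15, edgeR adjusted p = 0.0360; 0.213 with the line alone). Without that library the log2 fold change was 0.46 and the adjusted p was 0.148. WIPI1 passed in 4 of 12 joint fits that left out a library and in 0 of 6 such fits of HCC1806 alone. WIPI1 lies opposite ARSG and AC007780.1, and reads of these genes may be among its counts because the strand setting of the counting is not given in the sources used here. Its paralog WIPI2, which recruits the conjugation machinery, had -0.02, and ATG9A, the membrane protein of the seed vesicles, had -0.09.

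The class III PI3-kinase complex, which makes PI3P, had no call in HCC1806. UVRAG, a subunit of the form that acts in later steps, had 29.6, 23.6 and 26.0 CPM with sgC1 and 34.7, 34.4 and 34.3 CPM with sgPACT-2. Its groups did not overlap, and the log2 fold change of 0.38 missed the threshold (SE 0.11, edgeR adjusted p = 0.0840). ATG14, which directs the complex to nascent membranes, had 0.23. The core subunits BECN1, PIK3C3 and PIK3R4 had 0.13, 0.05 and -0.15.

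Conjugation enzymes and proteases had no call in HCC1806. ATG7, the E1-like enzyme, ATG3 and ATG10, the E2-like enzymes, and ATG5, ATG12 and ATG16L1, which form the complex that places ATG8 on lipid, had log2 fold changes between -0.16 and 0.09. The ATG4 proteases, which trim ATG8 proteins before conjugation and release them afterwards, ran from -0.11 for ATG4C to 0.29 for ATG4A.

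Among the ATG8 proteins, MAP1LC3B rose in HCC1806. MAP1LC3B (ENSG00000140941, chr16:87383995-87404779, plus strand) encodes LC3B, the ATG8 protein most used to count autophagosomes. It had 34.4, 31.4 and 32.1 CPM with sgC1 and 51.5, 43.9 and 47.8 CPM with sgPACT-2. The groups did not overlap, and the gap between them was wider than the range within either. MAP1LC3B rose by 0.55 on the log2 scale, 1.46-fold (SE 0.10, edgeR adjusted p = 0.00917). It passed in 12 of 12 joint fits that left out a library, with adjusted p-values of 0.00565 to 0.0362. With HCC1806 fitted alone it did not pass (adjusted p = 0.0899), nor in any of 6 such fits without a library (0.0553 to 0.379). MAP1LC3B lies opposite FBXO31, and its RefSeq window before the start falls in annotated exons and is not shown.

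The rest of the ATG8 family did not pass in HCC1806. GABARAP had a log2 fold change of -0.16, GABARAPL1 0.13 and GABARAPL2 -0.01. MAP1LC3A had 0.55 with an SE of 0.52, on 19 to 51 reads a library. Per kilobase of union exon length, the summed level of the family was 35.4 ± 2.85 CPM per kb with sgC1 and 38.0 ± 2.41 with sgPACT-2 (SD, n = 3). With sgC1, MAP1LC3B made up 17.2%, 16.2% and 18.8% of that sum, and with sgPACT-2 27.5%, 21.4% and 22.5%. The share of GABARAP, which had the highest level of the family in each sgC1 library, was 36.7%, 35.2% and 34.6% in control and 27.3%, 30.5% and 31.1% in depleted libraries. Neither pair of groups overlapped, as the plot of family shares shows, and a share moves with every other member of the sum.

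**Figure D2:**
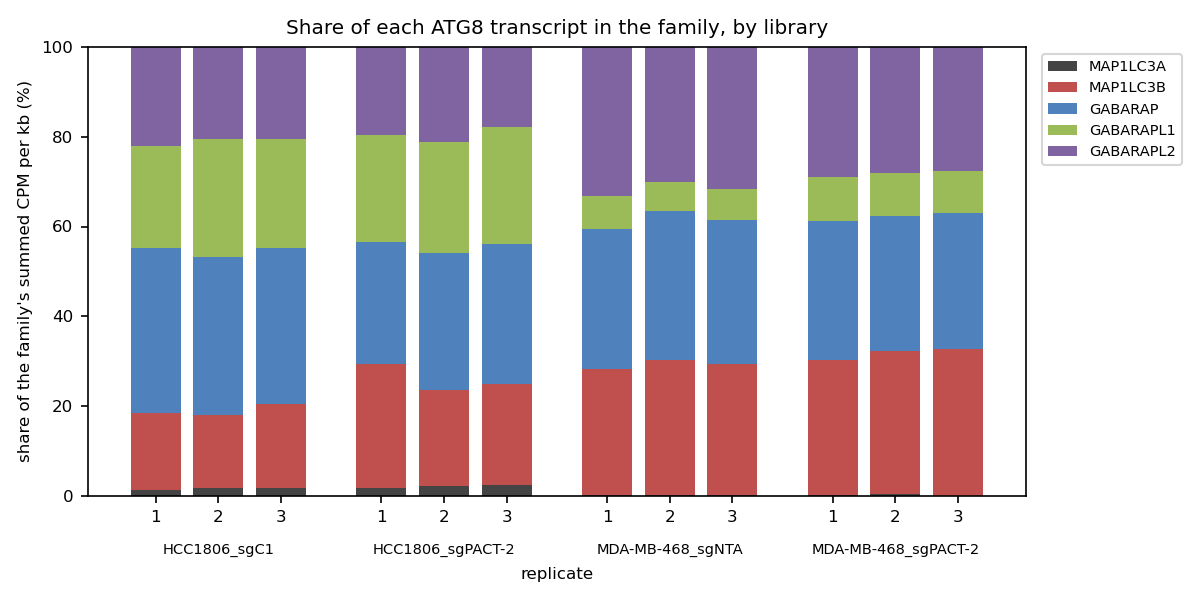
Share of each ATG8 transcript in the family's summed CPM per kb of exon (vertical axis, %), 1 bar per library, replicates 1 to 3 of each group. The MAP1LC3B band (red) is 16.2% to 18.8% in HCC1806 sgC1 and 21.4% to 27.5% in HCC1806 sgPACT-2, and the GABARAPL1 band (green) is 6.32% to 7.32% in MDA-MB-468 sgNTA and 9.42% to 9.92% in MDA-MB-468 sgPACT-2.

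Cargo receptors link ubiquitin-marked cargo to ATG8 proteins. OPTN had 69.4, 73.0 and 62.6 CPM with sgC1 and 78.1, 88.8 and 110 CPM with sgPACT-2 in HCC1806. The groups did not overlap, replicate 3 was the highest, and the log2 fold change of 0.44 missed the threshold (SE 0.12, edgeR adjusted p = 0.0701). Without replicate 3 it was 0.29 (adjusted p = 0.232), and without sgPACT-2 replicate 1 it was 0.54 and passed (0.00491). NBR1 had -0.02, CALCOCO2, also known as NDP52, had 0.10, and TAX1BP1 had -0.00.

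The MiT/TFE factors switch on lysosome and autophagy genes when mTORC1 is low. In HCC1806 TFEB had a log2 fold change of 0.45, MITF 0.31 and TFE3 0.20, and none passed in the joint fit. TFEB had 12.2, 23.5 and 15.8 CPM with sgC1 and 16.2, 25.7 and 28.0 CPM with sgPACT-2. The groups overlapped, and the depleted library was the higher in each of the 3 same-numbered pairs. Its edgeR adjusted p was 0.369 in the joint fit and 0.0370 once same-numbered libraries were blocked.

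The mTORC1 brakes did not pass in HCC1806. DDIT4 (REDD1; ENSG00000168209, chr10:72273920-72276036, plus strand), which acts through the TSC complex, had 151, 140 and 179 CPM with sgC1 and 176, 183 and 199 CPM with sgPACT-2. The groups overlapped by 1 control library, and the log2 fold change was 0.25 (SE 0.11, edgeR adjusted p = 0.328). SESN3, a sestrin that acts through the GATOR complexes, had 2.71, 1.12 and 2.33 CPM with sgC1 and 1.03, 1.99 and 4.31 CPM with sgPACT-2. These rest on 21 to 129 reads a library, and the log2 fold change of 0.31 had an SE of 0.35 (edgeR adjusted p = 0.793). Without sgPACT-2 replicate 3 it was -0.43.

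In all, 9 of the 39 genes had depleted HCC1806 libraries above all control libraries and 0 had them below, where 8.51% and 8.17% of all genes tested did. The 9 were ULK1, BECN1, UVRAG, ATG2A, WIPI1, ATG7, MAP1LC3B, OPTN and TFE3. The summed level of the 39 genes was 1675, 1714 and 1627 CPM with sgC1 and 1741, 1894 and 1967 CPM with sgPACT-2. The count of 4 was 7 with the replicate number as a block, which added UVRAG (adjusted p = 0.0324), OPTN (0.0219) and TFEB (0.0370), and rising genes were then 2.60% of all tested. It was 0 with HCC1806 fitted alone, where 0.315% of 23485 genes passed. In that fit 6 members had an unadjusted p under 0.05, where 11.5% of all genes tested did. The joint fit without sgC1 replicate 1 or without sgPACT-2 replicate 2 called 1 member, MAP1LC3B. Over all genes, 301 of 29204 and 391 of 28998 passed in those fits.

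In MDA-MB-468 the joint fit called 0 of the 39 genes, where 0.170% of all genes tested passed, all of them higher. At an unadjusted p under 0.05 there were 5 members, all higher, against 5.27% of all genes, and DESeq2 called 2, where it called 0.381% of the genes it tested as higher. With MDA-MB-468 fitted alone, 5 members rose and 0 fell: DDIT4, GABARAPL1, MITF, NBR1 and TFEB. In that fit 1.51% of 21404 genes passed, 1.21% of them as higher. The members' log2 fold changes in the joint fit ran from -0.15 to 0.55 with a median of 0.03, against -0.01 over all genes tested.

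DDIT4 had 71.1, 69.5 and 77.8 CPM with sgNTA and 116, 92.2 and 111 CPM with sgPACT-2 in MDA-MB-468. All depleted libraries lay above all control libraries. The log2 fold change was 0.55, 1.47-fold (SE 0.11), with an adjusted p of 0.0734 in the joint edgeR fit, 0.00395 in DESeq2 and 2.0e-05 with MDA-MB-468 alone. It passed in 6 of 6 fits of MDA-MB-468 alone that left out a library, and in 5 of 12 such joint fits (edgeR adjusted p 0.00901 to 0.399). DDIT4-AS1 lies opposite DDIT4, and its reads may be among these counts.

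GABARAPL1 (ENSG00000139112, chr12:10212458-10223130, plus strand), an ATG8 protein of the GABARAP branch, had 24.1, 20.7 and 23.5 CPM with sgNTA and 35.9, 29.4 and 35.1 CPM with sgPACT-2. Its groups did not overlap, and the log2 fold change was 0.55 (SE 0.12). The adjusted p was 0.107 in the joint edgeR fit, 0.0121 in DESeq2 and 3.1e-04 with MDA-MB-468 alone. When 1 library was left out, GABARAPL1 passed in 6 of 6 fits of MDA-MB-468 alone. It passed in 2 of 12 such joint fits (edgeR adjusted p 0.0176 to 0.607). AC115676.1 lies opposite GABARAPL1, and its reads may be among these counts. GABARAPL1 made up 7.32%, 6.32% and 6.91% of the family's sum per kb in control libraries and 9.92%, 9.42% and 9.50% in depleted ones. That sum was 81.3 ± 1.76 CPM per kb with sgNTA and 85.1 ± 7.64 with sgPACT-2 (SD, n = 3).

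MITF, the MiT/TFE factor better known from pigment cells, had 14.0, 12.8 and 12.4 CPM with sgNTA and 20.4, 17.2 and 20.1 CPM with sgPACT-2. Its groups did not overlap, and it rose only with MDA-MB-468 fitted alone (log2 fold change 0.57, SE 0.11, edgeR adjusted p = 0.00162; joint fit 0.910). NBR1 had 101, 102 and 109 CPM with sgNTA and 140, 110 and 134 CPM with sgPACT-2, and passed only in the same fit (log2 fold change 0.32, SE 0.07, edgeR adjusted p = 0.0199; joint fit 0.824). TFEB had 24.3, 19.5 and 19.8 CPM with sgNTA and 33.8, 23.9 and 28.4 CPM with sgPACT-2. Depleted replicate 2 of TFEB lay below control replicate 1, and TFEB passed only with the line alone (log2 fold change 0.45, SE 0.11, edgeR adjusted p = 0.0223; joint fit 0.958). When 1 library was left out of that fit, MITF passed in 6 of 6 fits, NBR1 in 2 and TFEB in 2.

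**Figure D3:**
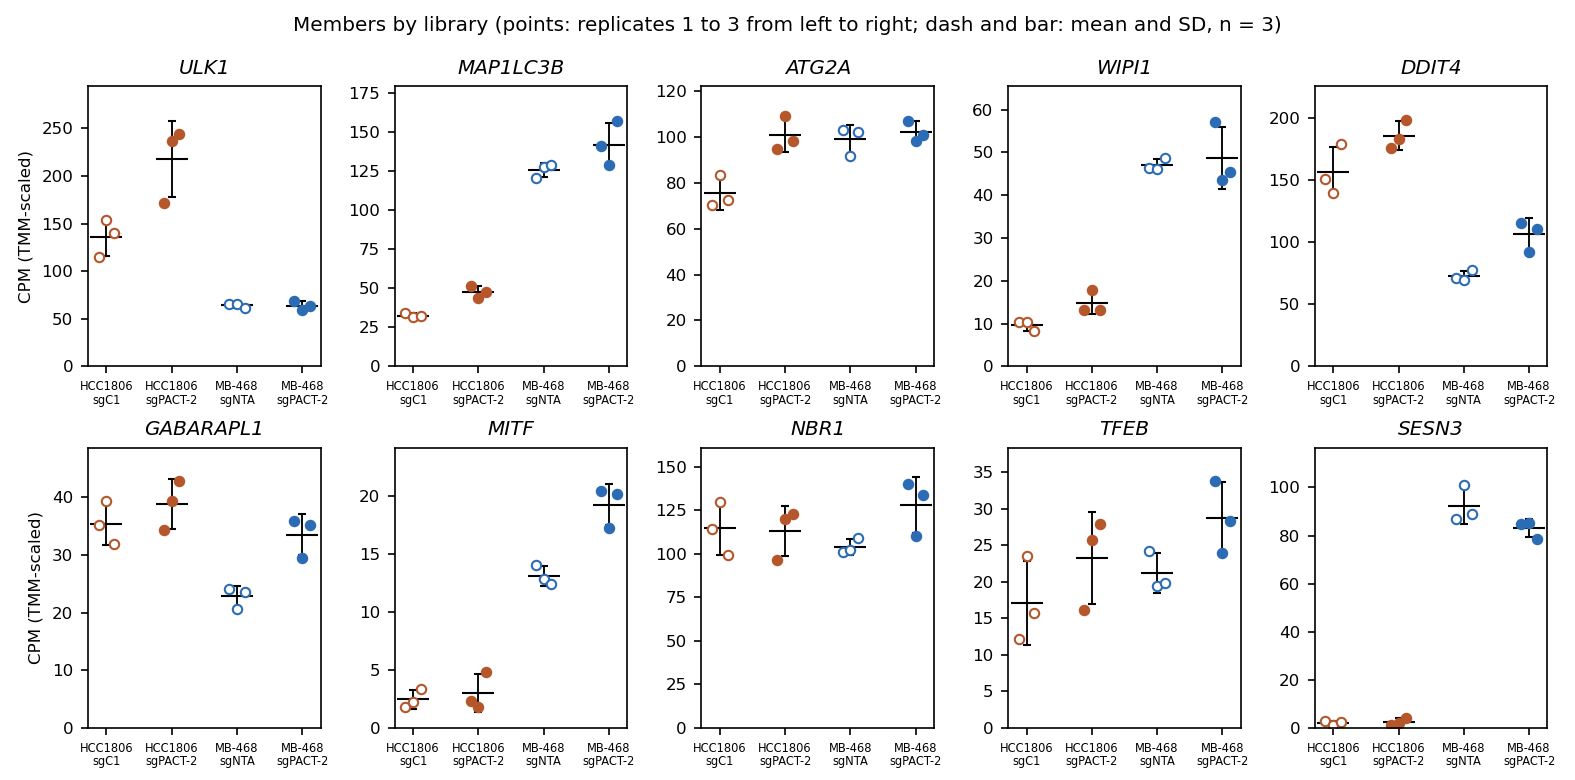
Level of 10 genes in every library (CPM after TMM scaling, vertical axes from 0), with open points for the control guide, filled points for sgPACT-2, and the mean and SD of 3 libraries. ULK1, MAP1LC3B, ATG2A and WIPI1 separate the guides in HCC1806; DDIT4, GABARAPL1, MITF and NBR1 separate them in MDA-MB-468, and SESN3 is below 5 CPM in all HCC1806 libraries.

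The genes called in HCC1806 had small differences in MDA-MB-468. ULK1 had a log2 fold change of -0.01 there (95% interval -0.31 to 0.30), ATG2A 0.05 (-0.19 to 0.28), WIPI1 0.05 (-0.27 to 0.36) and MAP1LC3B 0.18 (-0.05 to 0.41). Intervals here and below rest on the fit's residual degrees of freedom. These are fewer than the test used, so the intervals are somewhat wider than the test's own. MAP1LC3B still had all depleted libraries above all control libraries in MDA-MB-468. SESN3 had 87.0, 101 and 89.1 CPM with sgNTA and 85.0, 85.4 and 78.6 CPM with sgPACT-2, and its log2 fold change of -0.15 did not pass (SE 0.24, edgeR adjusted p = 1.00). Depleted libraries lay above all controls for 6 members (6.20% of all genes tested did) and below for 2, SESN3 and ATG4B (6.94%). UVRAG was among the 6, as in HCC1806, with a log2 fold change of 0.28 (edgeR adjusted p = 0.784; 0.0682 with the line alone).

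The test of the difference between the lines' effects called 0 of the 39 genes in edgeR, where 0.122% of all genes tested passed, and 0 in DESeq2. At an unadjusted p under 0.05 there were 5, against 8.39% of all genes: ULK1, ATG2A, WIPI1 and MAP1LC3B with a smaller effect in MDA-MB-468, and GABARAPL1 with a larger one. For ULK1 the effect in MDA-MB-468 minus that in HCC1806 was -0.68 on the log2 scale (SE 0.19, 95% interval -1.11 to -0.25, edgeR adjusted p = 0.240). It passed with the replicate block (adjusted p = 0.010) and without HCC1806 sgPACT-2 replicate 1 (0.0121). The differences were -0.57 for WIPI1 (adjusted p = 0.416), -0.37 for ATG2A (0.471), -0.37 for MAP1LC3B (0.477), 0.42 for GABARAPL1 (0.506) and 0.30 for DDIT4 (0.632). None of these is shown to belong to 1 line.

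More of the set differed between the control cells of the lines than with PACT depletion. Of the 39 genes, 26 were higher in MDA-MB-468 with sgNTA than in HCC1806 with sgC1 and 7 were lower, 33 in all. Of all genes tested, 34.2% were higher, 40.1% were lower and 74.2% differed. The members' median log2 difference, MDA-MB-468 minus HCC1806, was 0.53, against -0.26 over all genes tested. Line and control guide cannot be told apart in this comparison. With library size alone as the scaling, the median over all genes moved to -0.51 and that of the members to 0.28, with 30 called. All MDA-MB-468 control libraries lay above all HCC1806 control libraries for 27 members (35.8% of all genes tested did) and below for 7 (41.8%).

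SESN3 had the largest difference. It had 2.71, 1.12 and 2.33 CPM in HCC1806 sgC1 and 87.0, 101 and 89.1 CPM in MDA-MB-468 sgNTA, 5.48 higher on the log2 scale (SE 0.32, edgeR adjusted p = 5.5e-11). DDIT4 went the other way, at -1.11 (SE 0.12, edgeR adjusted p = 1.4e-07). Per kb of exon, DDIT4 ranked 1 of the 39 genes in HCC1806 at 76.2 ± 9.63 CPM per kb (SD, n = 3), and SESN3 ranked 39 at 0.194 ± 0.0786. In MDA-MB-468, DDIT4 ranked 3 at 35.4 ± 2.14 CPM per kb and SESN3 ranked 21 at 8.73 ± 0.709.

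The ATG4 proteases were all higher in MDA-MB-468. ATG4A had 3.63, 2.15 and 2.92 CPM in HCC1806 sgC1 and 37.7, 40.0 and 41.2 CPM in MDA-MB-468 sgNTA (log2 difference 3.77, SE 0.17, edgeR adjusted p = 1.6e-12). ATG4D had 12.9, 13.4 and 12.5 CPM against 91.0, 84.9 and 85.1 CPM (log2 difference 2.75, SE 0.10, edgeR adjusted p = 2.6e-13). The ranges of the lines did not overlap for either gene. ATG4C and ATG4B differed by 1.04 and 0.51. Per kb, ATG4D ranked 2 in MDA-MB-468 and 17 in HCC1806.

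Within the ATG8 family the lines were arranged differently. MAP1LC3B, GABARAPL2 and GABARAP were higher in MDA-MB-468, by 1.95, 1.79 and 1.05 on the log2 scale. MAP1LC3A was lower, at -1.59 (SE 0.56), on 19 to 26 reads a library in HCC1806 sgC1 and 9 to 13 in MDA-MB-468 sgNTA. GABARAPL1 was lower too, at -0.64. GABARAPL1 thus made up 24.5% ± 1.83 of the family's sum in HCC1806 control cells and 6.85% ± 0.501 in MDA-MB-468 control cells (SD, n = 3). MAP1LC3A was the least abundant of the 5 in both lines.

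The initiation complex was split as well. ULK1 was lower in MDA-MB-468, at -1.09, while ULK2, RB1CC1, ATG13 and ATG101 were higher by 1.00, 0.52, 1.39 and 1.69. ULK1 ranked 3 per kb in HCC1806 at 17.9 ± 2.58 CPM per kb (SD, n = 3) and 22 in MDA-MB-468 at 8.42 ± 0.315. Of the membrane and PI3P genes, WIPI1 was higher by 2.29 and ATG2B lower, at -1.18. ATG9A led this role per kb in both lines, at 26.7 ± 1.58 CPM per kb in HCC1806 and 40.4 ± 1.82 in MDA-MB-468 (SD, n = 3).

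Of the PI3-kinase complex 2 of 5 genes passed. BECN1 and UVRAG were higher by 0.53 and 0.71, and PIK3C3, PIK3R4 and ATG14 did not pass. Of the conjugation genes, ATG5, ATG3, ATG10 and ATG16L1 were higher by 1.64, 1.38, 0.94 and 0.63, ATG12 was lower at -0.33, and ATG7 did not pass. Of the cargo receptors, TAX1BP1 was higher by 2.12 and CALCOCO2 by 0.31, OPTN was lower at -0.47, and NBR1 did not pass. Among the MiT/TFE factors, MITF was higher by 2.41 and TFE3 by 0.34, and TFEB did not pass.

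**Figure D4:**
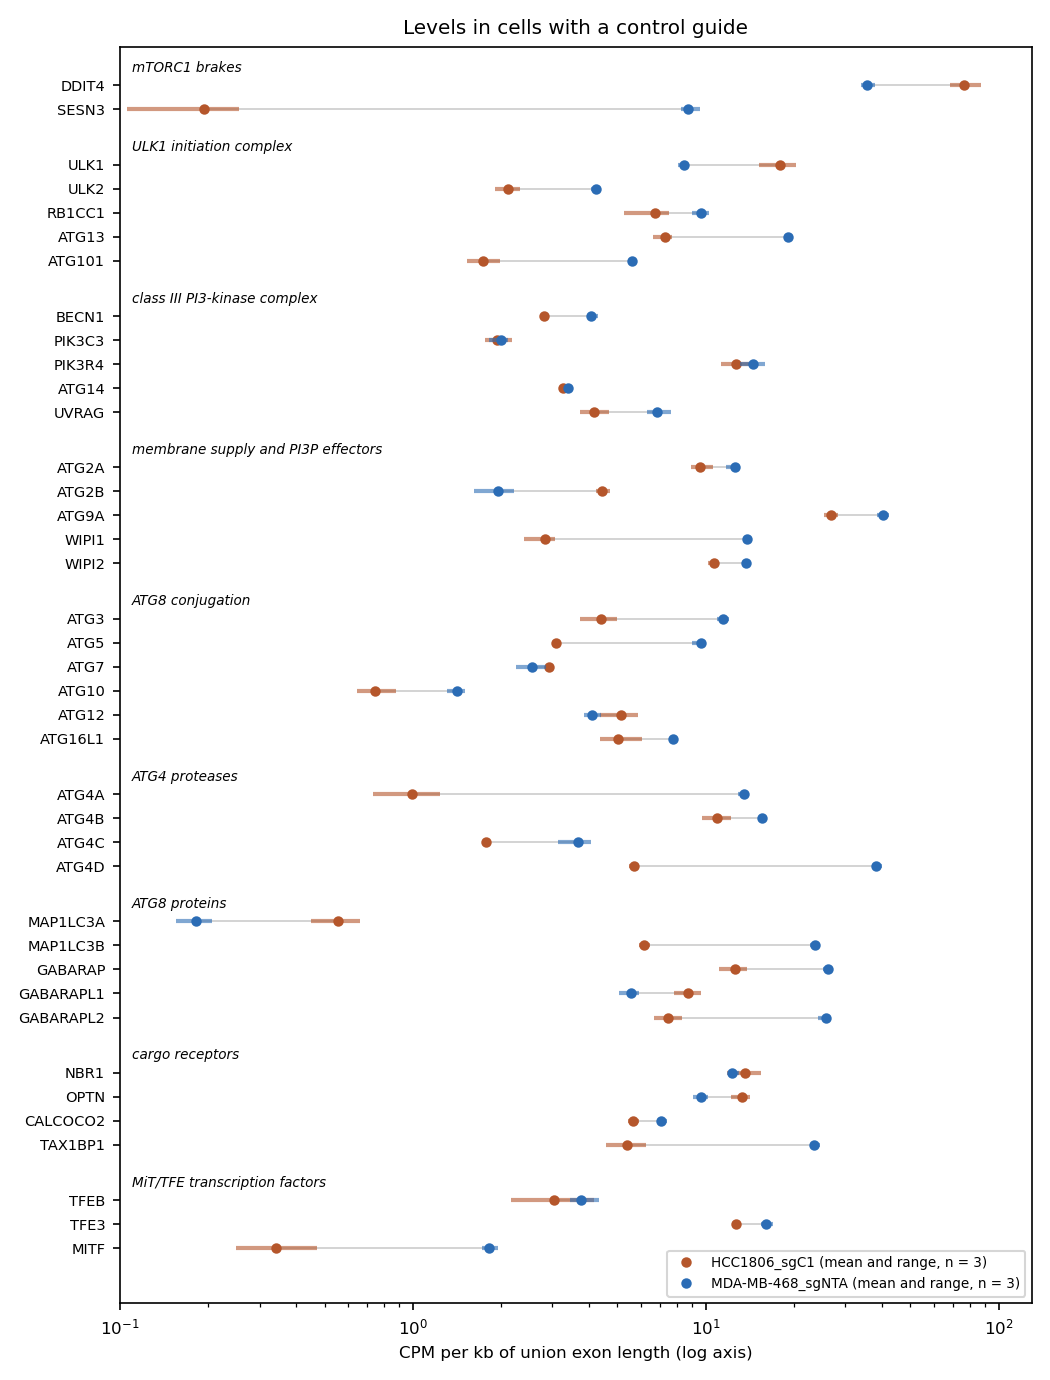
Level of each gene in control cells, in CPM per kb of union exon length on a log axis (mean as a point, range of 3 libraries as a bar), for HCC1806 sgC1 (brown) and MDA-MB-468 sgNTA (blue), grouped by role. SESN3, ATG4A and ATG4D lie farthest apart between the lines, and DDIT4, ULK1 and GABARAPL1 lie higher in HCC1806.

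Neighboring pathways were read from 3 further lists. Of 31 genes of mTORC1 and its regulators, 1 rose in HCC1806 and 0 fell, where 1.16% of all genes tested rose and 1.32% fell. It was SESN2, a sestrin that senses leucine, with 16.7, 19.9 and 17.2 CPM with sgC1 and 42.0, 42.3 and 40.3 CPM with sgPACT-2 (log2 fold change 1.21, SE 0.11, edgeR adjusted p = 1.1e-05; 0.00309 with the line alone). SESN2 thus had a larger log2 fold change than any of the 39 genes in HCC1806. In MDA-MB-468 it had 40.0, 42.8 and 43.3 CPM with sgNTA and 57.7, 53.8 and 65.8 CPM with sgPACT-2 (log2 fold change 0.49, SE 0.11, edgeR adjusted p = 0.0848; 2.2e-04 with the line alone). No gene of this list fell in either line, in the joint fit or with the line alone.

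Of 26 further autophagy genes, 2 rose in HCC1806 and 0 fell, against the same 1.16% and 1.32% of all genes tested. WDR45, another PI3P binder of the WIPI family, had a log2 fold change of 0.64 (SE 0.13, edgeR adjusted p = 0.0179; 0.164 with the line alone). TP53INP2, a nuclear and autophagosomal scaffold, had 0.46 (SE 0.11, edgeR adjusted p = 0.0394; 0.284 with the line alone). When 1 library was left out of the joint edgeR fit, WDR45 passed in 10 of 12 fits (adjusted p 0.00648 to 0.0790). TP53INP2 passed in 2 of 12 (0.0304 to 0.135). In MDA-MB-468 the joint edgeR fit called 0 of the 26, and so did DESeq2. At an unadjusted p under 0.05 there were 2 in the edgeR fit, both lower, where 5.27% of all genes tested passed. TP53INP2 fell there with the line fitted alone (log2 fold change -0.30 in the joint fit, adjusted p with the line alone 0.0224). SQSTM1, the receptor p62, had -0.08 in HCC1806 and 0.19 in MDA-MB-468 and passed in neither.

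Of 30 lysosome genes, 6 fell in HCC1806 and 0 rose, where 1.32% of all genes tested fell and 1.16% rose. Their median log2 fold change was -0.21, against 0.01 over all genes tested. The 3 with the smallest adjusted p were NPC2, a cholesterol carrier (-0.57, SE 0.11, edgeR adjusted p = 0.0115; 0.137 with the line alone), PSAP, the precursor of the saposins (-0.44, SE 0.09, 0.0143; 0.204 alone), and LIPA, the acid lipase (-0.66, SE 0.15, 0.0255; 0.194 alone). The count was 0 with HCC1806 fitted alone, 2 with library size alone as the scaling and 12 with the replicate block. Over all genes, 9 of 23485, 146 of 27029 and 1245 of 27029 were called lower in these fits, against 358 of 27029 in the main fit. Without 1 library the lysosome count ran from 2, without sgC1 replicate 1, to 8, without sgPACT-2 replicate 1. Over all genes, 122 of 29204 and 1195 of 29160 were called lower in those fits. In MDA-MB-468 the lysosome count was 0 of 30 in the joint edgeR fit and 0 in DESeq2. It was also 0 at an unadjusted p under 0.05, where 5.27% of all genes tested passed. The log2 fold change was negative for 28 of the 30 there and for 24 of the 30 in HCC1806, and the median in MDA-MB-468 was -0.10, against -0.01 over all genes tested.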

How the data were processed

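Per the submitters' processing notes, reads were trimmed, aligned and counted with tools that include Trimmomatic 0.36, STAR 2.5.2b and featureCounts of Subread 1.5.2, on GRCh38. The role and settings of each, strand included, are not given in the sources used here. Reads from the other strand may thus be among the counts of members opposite another gene, NBR1, SESN3, ATG4B and ATG4D included. The authors deposited unnormalized read counts, with Ensembl genes as lines and a column for every library. Genes with no name held 0.0284% of counts.

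Gene models and union exon lengths came from GENCODE 29, which matched 56898 of 57500 genes. edgeR 4.0.16 (R 4.3.3) was run with filterByExpr, TMM and glmQLFTest, two-sided, on all 12 libraries with 1 coefficient per group. That left 27029 of the 44375 genes with a count, and p-values were adjusted over all of them at 0.05. CPM are TMM-scaled. The steps were run on simulated counts, where the check was on the mean error of known fold changes. The simulation had no replicate pairing and no outlying library, and its false calls were not held to a limit. Alternatives were DESeq2 1.42.0, other scalings and filters, each line alone, the replicate block, a threshold of 0.01, and leaving out each library. Figures were drawn with matplotlib 3.10.9.

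The members, lists and tests were chosen with earlier results of these data known. The rule gave values in every library for DDIT4, SESN3, each member called, and the 3 largest differences between control cells, and at most 3 genes of each other list. UVRAG, OPTN, SQSTM1, GABARAPL1, MITF, NBR1 and TFEB were added after their values were seen. For pairing, deviations from group means over 15918 genes were correlated between same-numbered libraries. In HCC1806 r was 0.479, 0.294 and 0.152, all over 0.1, so its numbers may pair the libraries, although control replicate 2 correlated more with depleted replicate 3 (0.351). The joint fit behind the calls did not use such a pairing, and only the fit with the replicate block did. No protein sequences were analysed here.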

Additional observations from a re-analysis of the deposited data

How the results depend on the processing

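Members called in HCC1806 numbered 4 of 39. They numbered 7 with the replicate block, 1 at an adjusted p under 0.01 and 0 with HCC1806 fitted alone. Over all genes these called 1947 of 27029, 160 of 27029 and 74 of 23485, against 672 of 27029 in the main fit. Members called numbered 6 with DESeq2, 6 with library size only, 6 with a mean of at least 50 counts, 5 with no filter and 4 with RLE size factors. Over all genes these called 1245 of 16548, 793 of 27029, 845 of 15918, 1351 of 44375 and 617 of 27029, in that order. The members called ran from 1 to 6 when 1 library was left out of the joint fit, and from 0 to 2 when it was left out of HCC1806 alone. Calls over all genes moved too. Without sgC1 replicate 1 they were 301 of 29204 in the joint fit (1 member) and 18 of 24388 alone (0 members). Without sgPACT-2 replicate 1 they were 1792 of 29160 in the joint fit (6 members) and 428 of 24583 alone (2 members). Members called in MDA-MB-468 numbered 0. They numbered 1 with library size only, 2 with DESeq2, 2 with no filter, 2 with the replicate block and 5 with MDA-MB-468 alone. Over all genes these fits called 61 of 27029, 113 of 26504, 143 of 44375, 102 of 27029 and 323 of 21404, in that order. Without 1 library the members called ran from 0 to 2 in the joint fit and from 3 to 5 with the line alone. The joint fits without HCC1806 sgC1 replicate 1 (0 members) and without HCC1806 sgPACT-2 replicate 1 (2 members) called 50 of 29204 and 98 of 29160 genes. Members whose effect differed between lines numbered 0, and 1 with no filter, 1 with the replicate block and 0 to 1 without 1 library. In each of these the gene was ULK1. Over all genes, 275 of 44375 passed with no filter and 271 of 27029 with the replicate block, against 33 of 27029 in the main fit. Members differing between control cells numbered 33, and 27 to 33 under the alternatives run. In MDA-MB-468 the same-number correlations were 0.116, 0.0750 and 0.106, and each library correlated best with its own number. The highest value for unlike numbers was 0.00375. These correlations are small, and the labels do not say whether the numbers pair the libraries. SESN3 in HCC1806 (0.31) ran from -0.43, without sgPACT-2 replicate 3, to 0.64, without sgPACT-2 replicate 1, in the joint fit. With HCC1806 alone it ran from -0.42 to 0.65, and was -0.00 without sgC1 replicate 2; the cause of the change of sign was not tested. With library size alone, the median of all genes in HCC1806 moved from 0.01 to 0.13 and that of the members from 0.05 to 0.18. Its calls over all genes were then 647 higher and 146 lower, against 314 and 358. Fits of 1 line alone without 1 library were chosen after seeing the data. Depth limits SESN3 in HCC1806 and MAP1LC3A in both lines.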
